A study of Mus musculus with 35 samples.

Results

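The 8 genes described here are feedback brakes on the MAP kinases: the dual-specificity phosphatase genes Dusp1, Dusp2, Dusp4, Dusp5, Dusp6 and Dusp10 and the Sprouty genes Spry1 and Spry2. They were taken as a list by name, 8 of the 48709 genes in the count tables, and all 8 were among the 13819 genes that passed the filter on low counts. The libraries came from mouse cytotoxic T lymphocytes (CTLs) of OT-I mice, whose CD8+ T cells carry 1 transgenic T-cell receptor for an ovalbumin peptide. Before any group was set up, the cells had been stimulated through CD3 and CD28 and grown in IL-2. There were 7 groups of 5 libraries. One was taken at 0 h, and the others after 24 h at pH 7.4, pH 7 or pH 6.6 (set with HCl in low-glucose DMEM), each without or with IL-2 at 200 IU/mL; dead cells were removed on Ficoll before RNA was taken. The labels call all cells CD8+ T cells and give no age or sex of the mice, and the 5 replicates are numbered 1 to 5 in every group.

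MAP kinases such as ERK, p38 and JNK are active only while 2 residues of their activation loop are phosphorylated. The MAP kinase phosphatases remove these phosphates, and many of their genes are themselves switched on by the kinases they restrain, so their RNA is often read as a trace of recent MAP kinase activity. DUSP1, DUSP2 and DUSP4 are inducible phosphatases of the nucleus that can act on several MAP kinases, DUSP5 is nuclear and selective for ERK, DUSP6 is cytoplasmic and selective for ERK, and DUSP10 acts on p38 and JNK. Sprouty proteins act further up, between growth factor or cytokine receptors and Ras and Raf. IL-2 drives the ERK pathway in T cells beside its STAT5 and mTORC1 arms.

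The promoters of Dusp1, Dusp2 and Dusp5 are printed because these 3 genes had 3 different patterns across pH and IL-2. Each run holds 250 bases before and 50 after the start site in RefSeq's annotation of GRCm38.p6, read 5′ to 3′ on the strand of the gene: chr17:26508423-26508722 on the minus strand, chr2:127335909-127336208 on the plus strand and chr19:53528895-53529194 on the plus strand. Capitals mark TGACG (the core of a cAMP response element, also read on the other strand), CACGTG (an E-box) and the CArG box, the motif bound by serum response factor.
Dusp1: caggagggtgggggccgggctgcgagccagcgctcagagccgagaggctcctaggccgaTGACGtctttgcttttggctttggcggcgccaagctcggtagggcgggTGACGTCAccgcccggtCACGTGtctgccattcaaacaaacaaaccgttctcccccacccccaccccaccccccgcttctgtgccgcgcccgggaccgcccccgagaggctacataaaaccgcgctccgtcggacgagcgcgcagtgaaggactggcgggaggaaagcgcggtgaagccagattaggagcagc
Dusp2: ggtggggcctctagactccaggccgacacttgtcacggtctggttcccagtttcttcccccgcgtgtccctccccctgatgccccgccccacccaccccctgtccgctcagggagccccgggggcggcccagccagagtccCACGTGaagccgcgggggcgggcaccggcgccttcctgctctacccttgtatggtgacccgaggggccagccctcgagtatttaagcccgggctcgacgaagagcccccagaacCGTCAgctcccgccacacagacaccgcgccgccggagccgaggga
Dusp5: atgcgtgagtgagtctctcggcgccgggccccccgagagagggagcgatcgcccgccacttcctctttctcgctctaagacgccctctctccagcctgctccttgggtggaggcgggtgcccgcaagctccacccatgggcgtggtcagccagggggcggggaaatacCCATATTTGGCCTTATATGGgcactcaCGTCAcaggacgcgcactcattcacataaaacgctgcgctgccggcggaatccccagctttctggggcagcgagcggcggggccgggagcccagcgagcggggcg
The Dusp1 window held the whole palindrome TGACGTCA, from base -143 to base -136 before the start, which was found in 1.79% of the 32851 promoter windows of the same length, and an E-box from -126 to -121. The shorter TGACG, which is part of that palindrome, stood in Dusp1, Dusp2 and Dusp5 and in 20.8% of all windows. CACGTG was in Dusp1 and Dusp2 and in 7.15% of all windows. Dusp5 had a pair of CArG boxes side by side, from -82 to -73 and from -72 to -63, a motif found in 1.63% of all windows. Of the 7 genes with a window, Spry2 alone had CCGGAA, the core bound by ETS factors, on either strand (14.9% of all windows), and no window of the 7 held TTCNNNGAA (8.3% of all windows, the motif of STAT factors) or TGANTCA (7.81%, the motif of AP-1). Dusp4 had no entry. A match is only a match of letters, and a missing one says nothing of the factor.

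Depth was 16721319 to 34033340 counts in genes per library, with a median of 24730020. Levels are in CPM (counts per 1000000 counts in genes, with TMM scaling). The CD8+ T cell markers Cd8a (674 to 1596 CPM) and Cd3e (373.5 to 631 CPM) were high in every library. The summed level of the 6 markers moved with the conditions, from 9499 to 12660 CPM at 0 h and 9074 to 11680 CPM at pH 7.4 with IL-2 to 2634 to 3973 CPM at pH 6.6 with IL-2 and 2385 to 2752 CPM at pH 7.4 without IL-2, carried by the granzyme gene Gzmb (medians of 7856, 7607, 975.5 and 123.5 CPM). Of the other cell types, markers of B cells summed to at most 0.381 CPM, those of myeloid cells to 0.368 to 3.99 CPM and those of erythroid cells to at most 0.235 CPM. Of the markers of other lymphocytes, Cd4 was between 0 and 2.48 CPM and Ncr1 at most 0.0694 CPM, while Zbtb7b (15.9 to 60.3 CPM) and Klrb1c (8.27 to 94.9 CPM) were plainly present, the latter with a median of 90.8 CPM at 0 h, 43.9 CPM at pH 7.4 with IL-2 and 10.9 CPM at pH 6.6 without IL-2. The share of reads outside genes also moved with the groups: it was 2.58 to 5.68% at 0 h, 3.91 to 5.18% at pH 7.4 with IL-2, 7.34 to 8.83% at pH 6.6 with IL-2, 7.70 to 10.2% at pH 7.4 without IL-2 and 6.47 to 9.19% at pH 6.6 without IL-2, so that acid and IL-2 withdrawal each came with a higher share than pH 7.4 with IL-2, with no overlap. The part of either shift in the results on acid and IL-2 was not tested. In bulk RNA, fewer cells with a transcript and less of it per cell cannot be told apart. Replicates 4 and 5 stood apart from replicates 1, 2 and 3 in the 24 h groups: on the first component of the within-group differences, which held 19.78% of their variance, the former scored 9.67 to 20.6 and the latter -34.4 to 6.55. The labels give no batch. Where a call differed between replicates 1, 2 and 3 and replicates 4 and 5, the values in both sets are given; the difference between the sets was not tested, and each set holds fewer libraries.

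Most genes moved in this experiment, which sets the scale for the 8 brakes. At pH 6.6 against pH 7.4 in IL-2, 2 of the 8 rose and 2 fell at an adjusted p under 0.05 (edgeR quasi-likelihood test over all genes), where 35.4% of all genes tested rose and 40.9% fell. The same pH step without IL-2 raised 4 of the 8, against 31.6% of all genes that rose and 35.4% that fell. IL-2 at pH 7.4 raised 6 and lowered 2, so that all 8 passed the test, against 39.3% and 41.1% of all genes, and IL-2 at pH 6.6 raised 4, against 13.2%. The median log2 difference of the 8 was -0.13 for acid in IL-2, 0.40 for acid without IL-2 and 0.97 for IL-2 at pH 7.4, where the medians over all genes were -0.07, -0.03 and -0.04. The acid and IL-2 comparisons share libraries, such as those at pH 7.4 with IL-2, and are not independent of each other. A difference between the pH effects with and without IL-2, tested as an interaction, was found for 6 of the 8: it was positive for 1, against 34.3% of all genes, and negative for 5, against 32.8%.

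**Figure D1:**
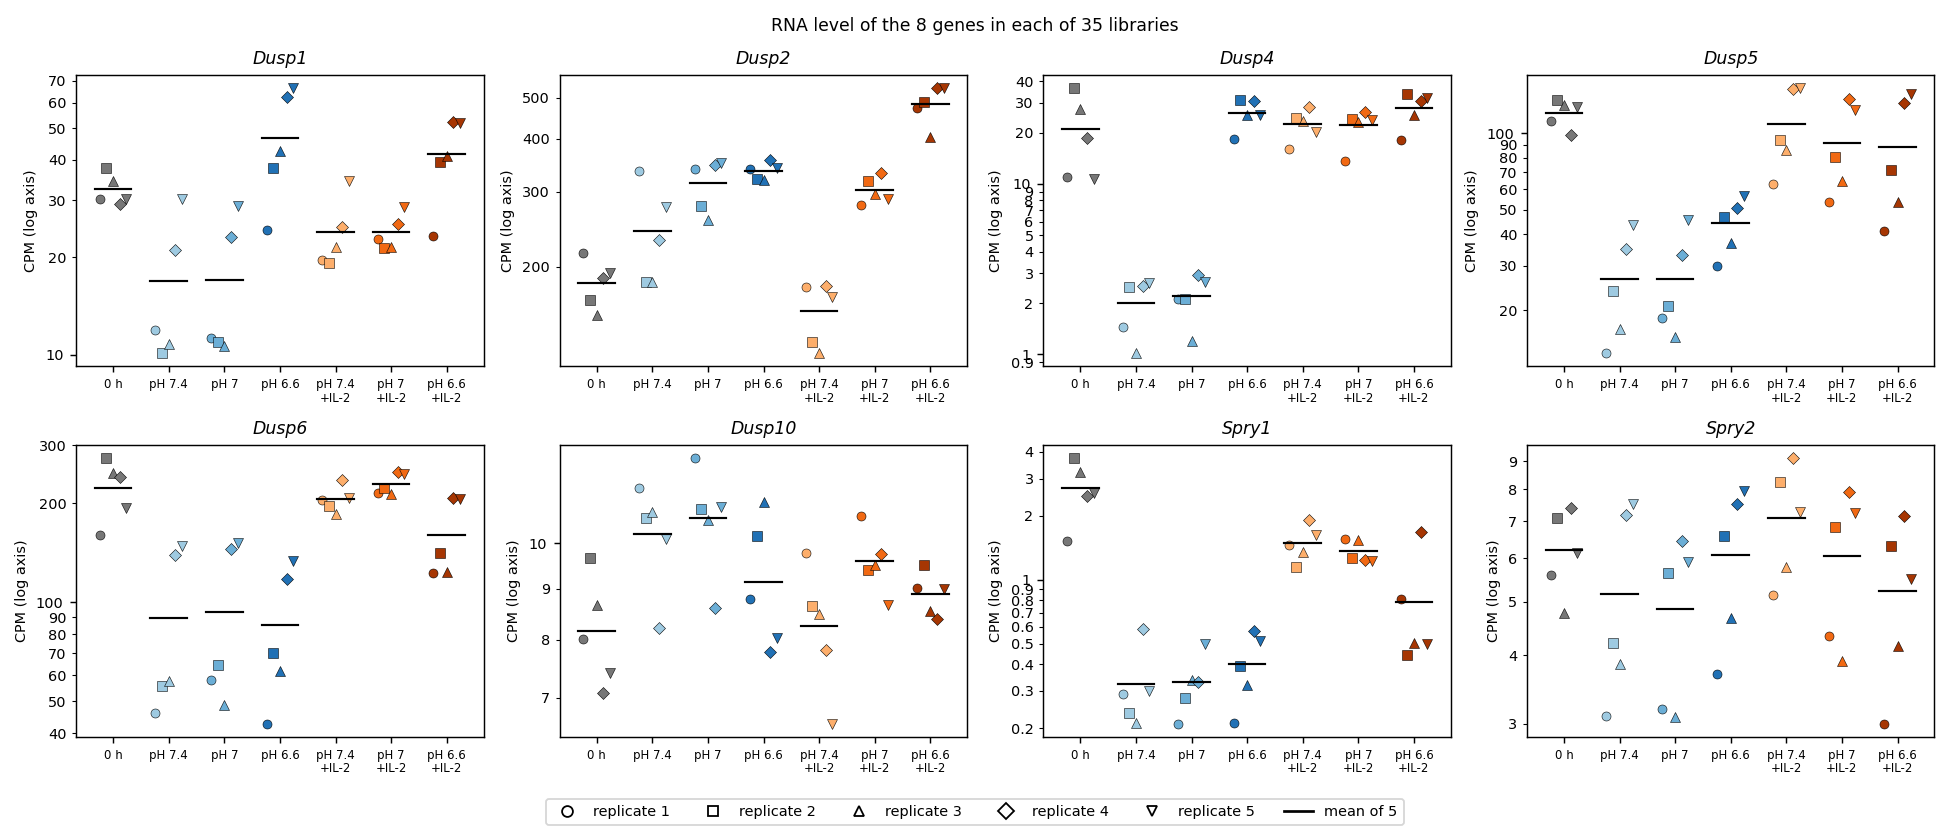
Level of each of the 8 genes (CPM, log axis) in the 35 libraries, by group; colours mark groups, symbols mark replicates 1 to 5, and bars are means of 5. Dusp2 is highest at pH 6.6 with IL-2 (405 to 528 CPM), Dusp4 stays under 3 CPM at pH 7.4 and pH 7 without IL-2, and replicates 4 and 5 lie above the others for Dusp5 and Dusp6 in most 24 h groups.

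Dusp2, which encodes a nuclear phosphatase first known from activated blood cells, was the one member whose acid rise tested as larger with IL-2 than without. At pH 7.4 with IL-2 its levels in replicates 1 to 5 were 179, 133, 125, 180.2 and 169 CPM, at pH 7 with IL-2 279, 318, 297, 332 and 288 CPM and at pH 6.6 with IL-2 473, 488, 405, 526 and 528 CPM. These ranges did not overlap, and each step towards acid took every replicate higher. The mean went from 157 ± 26.3 to 303 ± 21.8 and 484 ± 50.2 CPM (SD, n = 5). At pH 6.6 this was a 3.10-fold rise (log2 fold change 1.63, SE 0.098, adjusted p = 3.99e-16), and at pH 7 a 1.96-fold rise (0.97, SE 0.097, adjusted p = 3.19e-08).

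Without IL-2 the Dusp2 levels were 336, 184, 184, 231 and 277 CPM at pH 7.4, 340.2, 278, 257, 347 and 351 CPM at pH 7 and 339.5, 322, 319.9, 357 and 342 CPM at pH 6.6. Each of these 3 ranges overlapped the other two; that of pH 7.4 reached the range of pH 6.6 through replicate 1 alone. The log2 rise at pH 6.6 was 0.50, SE 0.096, adjusted p = 3.55e-05. It differed from the rise in IL-2 by 1.14 on the log2 scale (SE 0.14, interaction adjusted p = 8.44e-09), with the larger rise in IL-2 in 5 of 5 replicates. Dusp2 also turned its response to IL-2 around with pH: IL-2 lowered it at pH 7.4 (-0.61, SE 0.096, adjusted p = 7.54e-07), gave a difference of -0.04 at pH 7 (95% interval -0.23 to 0.16, adjusted p = 0.742) and raised it at pH 6.6 (0.52, SE 0.096, adjusted p = 0.000118). Among the 8 genes Dusp2 was the single one past the threshold at pH 7 in the fit over all libraries, where 9.15% of all genes rose with IL-2 and 1.36% without it. With IL-2, the edgeR fit of only the groups compared also called Dusp5 (-0.235, adjusted p = 0.0063), Dusp6 (0.178, 0.0229) and Dusp10 (0.242, 0.0358). Each of these went 1 way in 5 of 5 replicates. The Dusp2 rise at pH 7 without IL-2 was small (0.39, SE 0.096, adjusted p = 0.0237) and lost its call when replicate 2, 3, 4 or 5 was left out (adjusted p of 0.0887 to 0.271) or when the replicate number was not used as a block (0.326). The pH 7 interaction (0.58, SE 0.14, adjusted p = 0.0112, positive as in 2.19% of all genes) lost its call without replicate 2 (0.0764), without replicate 3 (0.101) and without the block (0.108). Neither pH 7 call held in a set of replicates alone: the rise without IL-2 was 0.34 in replicates 1, 2 and 3 and 0.46 in replicates 4 and 5, and the interaction was 0.73 and 0.37.

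Dusp1, an immediate-early gene whose product acts mainly on p38 and JNK, rose with acid in both media and most without IL-2. Its levels at pH 7.4 without IL-2 were 11.9, 10.1, 10.8, 21.1 and 30.4 CPM, and at pH 6.6 without IL-2 24.2, 37.6, 42.7, 62.6 and 66.6 CPM. With IL-2 they were 19.7, 19.2, 21.6, 24.7 and 34.5 CPM at pH 7.4 and 23.3, 39.3, 40.9, 52.1 and 51.9 CPM at pH 6.6. In both media every replicate was higher at pH 6.6 than its own number at pH 7.4, although the ranges overlapped because replicate 1 at pH 6.6 lay below replicate 5 at pH 7.4. The log2 rise was 1.5, SE 0.19, adjusted p = 7.38e-08, without IL-2 and 0.79, SE 0.19, adjusted p = 0.000442, with IL-2. At pH 7 the levels were close to those at pH 7.4, with log2 differences of 0.01 (95% interval -0.39 to 0.41) and 0.03 (-0.36 to 0.42).

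IL-2 raised Dusp1 at pH 7.4 (log2 fold change 0.57, SE 0.19, adjusted p = 0.00862) and at pH 7 (0.60, SE 0.19, adjusted p = 0.00651), and at pH 6.6 the difference was -0.14 (95% interval -0.52 to 0.24, adjusted p = 0.64). The interaction at pH 6.6 was -0.71, SE 0.27, adjusted p = 0.0221. These smaller calls rest on the full set of libraries: at pH 7.4 the IL-2 rise was 0.88 on the log2 scale in replicates 1, 2 and 3 and 0.16 in replicates 4 and 5 (adjusted p = 0.358), and it lost its call without replicate 2 (0.0613) or without the block (0.121). The call at pH 7 was lost without replicate 1 (0.071), without replicate 2 (0.0601) and without the block (0.13). At pH 7 the rise was 1.02 in replicates 1, 2 and 3 (adjusted p = 1.93e-05) and 0.012 in replicates 4 and 5 (0.946). The interaction lost its call without replicate 1 (0.0756), 2 (0.0822) or 3 (0.0635), without the filter on low counts (0.0636) and without the block (0.158). It was -0.89 in replicates 1, 2 and 3 (0.00268) and -0.43 in replicates 4 and 5 (0.0969).

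Dusp4, the third inducible nuclear phosphatase, was at a low level in 2 groups and at a high one in the other 5. At pH 7.4 and pH 7 without IL-2 it was low, at 1.45, 2.47, 1.02, 2.503 and 2.61 CPM and 2.10, 2.10, 1.19, 2.91 and 2.65 CPM, from 24 to 76 counts a library. At pH 6.6 without IL-2 it stood at 18.3, 30.9, 25.2, 30.5 and 25.2 CPM. With IL-2 it was 16.02, 24.5, 23.5, 28.1 and 20.3 CPM at pH 7.4, 13.6, 24.1, 23.2, 26.4 and 23.6 CPM at pH 7 and 18.1, 33.6, 25.3, 30.8 and 31.8 CPM at pH 6.6. No library of the 2 low groups came near any library of the other groups, whose lowest value was 10.7 CPM, at 0 h.

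Acid without IL-2 raised Dusp4 12.9-fold (log2 fold change 3.69, SE 0.23, adjusted p = 1.41e-14), and IL-2 alone at pH 7.4 raised it 11.2-fold (3.48, SE 0.23, adjusted p = 6.22e-15). IL-2 at pH 6.6 gave a log2 difference of 0.10 (95% interval -0.29 to 0.48, adjusted p = 0.745), and pH 6.6 in IL-2 gave 0.31 (-0.08 to 0.69, adjusted p = 0.141), higher in 5 of 5 replicates. That last difference passed the threshold when the fit held only the groups compared (0.38, adjusted p = 0.00267). It was 0.24 in replicates 1, 2 and 3 (0.312) and 0.46 in replicates 4 and 5 (0.0353). The interaction was -3.39, SE 0.30, adjusted p = 1.76e-11, the largest in size among the 8 genes. At pH 7 without IL-2 the difference from pH 7.4 was 0.12 (95% interval -0.43 to 0.66), so the step lay between pH 7 and pH 6.6.

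**Figure D2:**
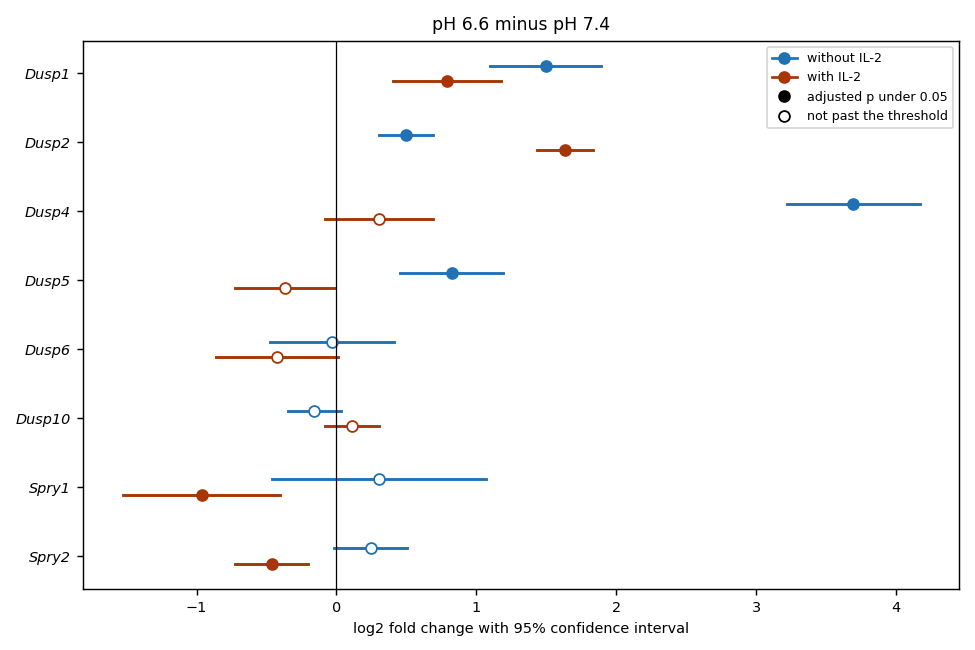
Log2 fold change at pH 6.6 against pH 7.4 for the 8 genes without IL-2 (blue) and with IL-2 (brown); points are estimates from 5 libraries a group, lines are 95% confidence intervals, and filled points have an adjusted p under 0.05. Dusp4 and Dusp1 rise more without IL-2, Dusp2 rises more with it, and Spry1 and Spry2 fall with IL-2.

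Dusp5, the nuclear phosphatase selective for ERK and long known as a gene that IL-2 induces in T cells, followed IL-2 at every pH. Its levels at 0 h, when the cells had just left IL-2 culture, were 111, 135, 129.7, 98.5 and 126 CPM. After 24 h at pH 7.4 they were 13.6, 23.9, 16.9, 34.9 and 43.3 CPM without IL-2 and 63.1, 94.1, 85.7, 149.6 and 151 CPM with it. These 2 groups did not overlap, and IL-2 made a 4.21-fold difference (log2 fold change 2.07, SE 0.18, adjusted p = 8.35e-12). At pH 7 the log2 difference with IL-2 was 1.79, SE 0.18, adjusted p = 2.38e-10.

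At pH 6.6 the Dusp5 levels were 30.04, 46.8, 36.9, 50.8 and 56.4 CPM without IL-2 and 41.0, 71.4, 53.6, 131 and 143 CPM with it. Dusp5 rose with acid without IL-2 (0.82, SE 0.18, adjusted p = 0.000199), was lower with acid in IL-2 in 5 of 5 replicates but outside the threshold (-0.37, SE 0.17, adjusted p = 0.0553), and the IL-2 difference left at pH 6.6 was 0.88, SE 0.18, adjusted p = 0.000392. The interaction was -1.19, SE 0.25, adjusted p = 0.000119. In replicates 1, 2 and 3 the acid difference in IL-2 was -0.57 (adjusted p = 0.000126), and in replicates 4 and 5 it was -0.07 (0.664); it also passed the threshold without replicate 4 (0.0263), without replicate 5 (0.026) and when the fit held only the groups compared (0.00666). Without the block the rise without IL-2 had an adjusted p of 0.0692 and the interaction 0.0662. The rise without IL-2, the IL-2 difference at pH 6.6 and the interaction passed the threshold in both sets but differed in size: they were 1.08, 0.54 and -1.65 in replicates 1, 2 and 3 and 0.44, 1.39 and -0.51 in replicates 4 and 5. Of the exon bases of Dusp5, 22.1% also lie in exons of genes read from the other strand, and whether reads were counted by strand is not given in the sources used here.

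Dusp6, the cytoplasmic phosphatase selective for ERK, was also higher with IL-2 at every pH, and its differences with acid did not pass the test. At pH 7.4 it was at 46.0, 55.8, 57.4, 139.6 and 148 CPM without IL-2 and at 204, 196, 185, 235 and 208 CPM with it. At pH 6.6 it was at 42.8, 70.3, 61.9, 118 and 134 CPM without IL-2 and at 123, 141, 124, 208 and 206 CPM with it. The IL-2 groups lay above the groups without IL-2 with no overlap at pH 7.4, and with overlap at pH 6.6. The log2 rise with IL-2 was 1.36, SE 0.22, adjusted p = 1.88e-06, at pH 7.4, 1.44, SE 0.22, adjusted p = 8.48e-07, at pH 7 and 0.97, SE 0.22, adjusted p = 0.00138, at pH 6.6.

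The split between replicates was widest for Dusp6 without IL-2, where replicates 1, 2 and 3 were at 46.0 to 57.4 CPM at pH 7.4 and replicates 4 and 5 at 139.6 and 148 CPM. The IL-2 rise at pH 7.4 was 1.91 on the log2 scale in the former and 0.58 in the latter, and at pH 7 it was 1.95 and 0.69, past the threshold in each. The acid difference in IL-2 was -0.42, SE 0.21, adjusted p = 0.0729, lower in 5 of 5 replicates: it was -0.61 in replicates 1, 2 and 3 (adjusted p = 0.000715) and -0.03 in replicates 4 and 5 (0.837), and it passed the threshold without replicate 5 (0.0237) and in the fit of only the groups compared (0.00924). Without IL-2 the acid difference was -0.04 (95% interval -0.48 to 0.41), and its sign changed with RLE scaling (0.01). The interaction of -0.39 (adjusted p = 0.26) did not pass the threshold over all 5 replicates, and was -0.74 in replicates 1, 2 and 3 (0.0036) and 0.18 in replicates 4 and 5 (0.453).

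Dusp10, whose product acts on p38 and JNK, kept nearly 1 level throughout, with group means from 8.17 to 10.6 CPM. The levels at pH 7.4 were 11.4, 10.6, 10.8, 8.22 and 10.1 CPM without IL-2 and 9.78, 8.64, 8.50, 7.82 and 6.59 CPM with it. IL-2 at pH 7.4 lowered it in 5 of 5 replicates by a small amount (-0.30, SE 0.094, adjusted p = 0.00385), and the 2 ranges overlapped. It was -0.27 in replicates 1, 2 and 3 (0.0431) and -0.39 in replicates 4 and 5 (0.0565). The acid differences were 0.11 with IL-2 (95% interval -0.08 to 0.30) and -0.16 without it (-0.35 to 0.03). With DESeq2 the interaction passed the threshold (0.29, adjusted p = 0.0478), as it did without replicate 1 (0.028) or 2 (0.0364), and in the fit over all libraries it was 0.27, SE 0.13, adjusted p = 0.072.

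Both Sprouty genes, which restrain Ras and Raf below receptors, fell with acid in the presence of IL-2. Spry1 was scarce, with 5 to 102 counts a library. It stood at 1.46, 1.15, 1.35, 1.90 and 1.63 CPM at pH 7.4 with IL-2 and at 0.809, 0.440, 0.503, 1.69 and 0.4997 CPM at pH 6.6 with IL-2. All 5 replicates fell (-0.96, SE 0.28, adjusted p = 0.00223), and replicate 4, at 1.69 CPM, was the one library at pH 6.6 that reached the range seen at pH 7.4. Without IL-2 the levels were 0.291, 0.236, 0.212, 0.584 and 0.300 CPM at pH 7.4, from 5 to 14 counts, and the acid difference was 0.30 (95% interval -0.46 to 1.07).

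IL-2 raised Spry1 4.58-fold at pH 7.4 (2.19, SE 0.31, adjusted p = 1.16e-07), 4.18-fold at pH 7 (2.06, SE 0.31, adjusted p = 3.58e-07) and 1.90-fold at pH 6.6 (0.93, SE 0.33, adjusted p = 0.0393). The call at pH 6.6 was lost without replicate 1 (0.132), 3 (0.0682) or 4 (0.257) and without the filter on low counts (0.0502). The interaction of -1.27 (SE 0.47, adjusted p = 0.018) was lost without replicate 2 (0.0888), 3 (0.0621) or 5 (0.111). In replicates 1, 2 and 3 the acid fall with IL-2 was -1.22 (0.00362) and the interaction -1.53 (0.0317), where replicates 4 and 5 had -0.65 (0.15) and -0.93 (0.262). The IL-2 difference at pH 6.6 was 0.85 and 1.011, outside the threshold in each set. Gm42922, a gene annotated on the other strand, shares 24.4% of the exon bases of Spry1, and Gm42922 had at most 2 counts in any library. As with Dusp5, whether reads were counted by strand is not given. The low count of Gm42922 therefore does not show whether the overlap affected the counts of Spry1.

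Spry2 varied more between replicates than between groups: it was at 5.15, 8.23, 5.79, 9.10 and 7.27 CPM at pH 7.4 with IL-2, 3.004, 6.32, 4.15, 7.15 and 5.50 CPM at pH 6.6 with IL-2, 3.10, 4.20, 3.85, 7.18 and 7.53 CPM at pH 7.4 without IL-2 and 3.70, 6.57, 4.68, 7.53 and 7.94 CPM at pH 6.6 without IL-2. Within each number, pH 6.6 was lower than pH 7.4 with IL-2 in 5 of 5 replicates (-0.46, SE 0.13, adjusted p = 0.00161) and higher without IL-2 in 5 of 5 (0.25, SE 0.13, adjusted p = 0.0896), the latter outside the threshold but past it with RLE scaling (0.0464), with DESeq2 (0.0389) and without replicate 5 (0.0436). The interaction was -0.71, SE 0.18, adjusted p = 0.000951. IL-2 raised Spry2 at pH 7.4 (0.49, SE 0.13, adjusted p = 0.000729) and at pH 7 (0.32, SE 0.13, adjusted p = 0.0229), while at pH 6.6 it was at -0.21 (95% interval -0.48 to 0.05, adjusted p = 0.238), lower with IL-2 in 5 of 5 replicates. Without the replicate block, which takes out the spread between numbers, these 4 calls had adjusted p values of 0.134, 0.113, 0.106 and 0.283, and the call at pH 7 was also lost without replicate 1 (0.12), 2 (0.0924) or 4 (0.0597). In replicates 1, 2 and 3 Spry2 passed the threshold for acid with IL-2 (-0.52), acid without IL-2 (0.40), the interaction (-0.92) and IL-2 at pH 7.4 (0.78) and pH 7 (0.36). In replicates 4 and 5 none of these did (edgeR, -0.31, 0.051, -0.36, 0.10 and 0.25, with adjusted p values of 0.117 to 0.822).

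**Figure D3:**
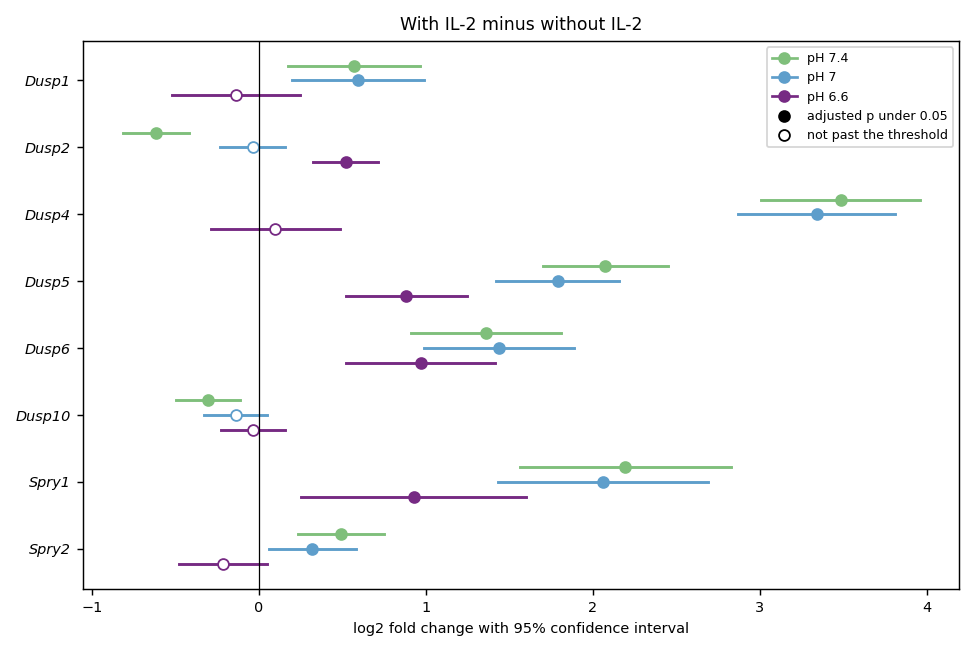
Log2 fold change with IL-2 against without IL-2 for the 8 genes at pH 7.4 (green), pH 7 (blue) and pH 6.6 (purple), with 95% confidence intervals; filled points have an adjusted p under 0.05. The pH 7 and pH 7.4 estimates lie close together except for Dusp2. At pH 6.6 the IL-2 difference is smaller for Dusp4, Dusp5 and Spry1 and turns positive for Dusp2. For Dusp1 and Spry2 it lies below 0 at pH 6.6, outside the threshold.

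IL-2 at pH 7 raised 6 of the 8 genes, against 37.6% of all genes tested, with Dusp2 and Dusp10 outside the threshold. The pH 7 and pH 7.4 responses to IL-2 share no library, but they share the replicate numbers and the fit and are not independent. Of the 8 interactions at pH 7, the one past the threshold was that of Dusp2. The others ranged from -0.28 for Dusp5 to 0.17 for Dusp10.

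After 24 h at pH 7.4 without IL-2, all 8 genes differed from their 0 h level. This comparison holds both the removal of IL-2 and 24 h of culture. Dusp1, Dusp4, Dusp5, Dusp6, Spry1 and Spry2 fell, 6 of 8 against 38.3% of all genes tested, and Dusp2 and Dusp10 rose, against 36.9%. The log2 differences were -3.33 for Dusp4, -3.07 for Spry1, -2.37 for Dusp5, -1.49 for Dusp6, -1.08 for Dusp1 and -0.32 for Spry2. Dusp2 rose by 0.39 and Dusp10 by 0.32. The small Spry2 fall lost its call in the fit of only the groups compared (adjusted p = 0.149), without the filter on low counts (0.0726), without replicate 1 (0.383), 2 (0.304) or 3 (0.0627) and without the block (0.366). It was -0.64 in replicates 1, 2 and 3 (0.00133) and 0.16, of the opposite sign, in replicates 4 and 5 (0.404). The Dusp1 fall was -1.62 in the former set (5.3e-08) and -0.19 in the latter (0.265), and the Dusp10 rise was 0.31 (0.0248) and 0.37 (0.0685). The falls of Dusp4, Dusp5 and Dusp6 passed the threshold in both sets but were larger in the former, at -3.84, -2.82 and -2.08 against -2.45, -1.49 and -0.56.

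With IL-2 kept at pH 7.4, 3 of the 8 were below their 0 h level, against 30.9% of all genes: Spry1 (-0.87, SE 0.24, adjusted p = 0.00225), Dusp1 (-0.51, SE 0.19, adjusted p = 0.0212) and Dusp2 (-0.23, SE 0.096, adjusted p = 0.0418). Only the Spry1 call among these 3 was kept without replicate 2, without replicate 3, without the block and without the filter on low counts, which left 1 of the 8 called in each case, and Dusp2 also lost its call with RLE scaling (adjusted p = 0.0503) and without replicate 5 (0.0827). In replicates 1, 2 and 3 and in replicates 4 and 5, Spry1 was at -1.07 (0.00299) and -0.54 (0.22), Dusp1 at -0.74 (0.000704) and -0.036 (0.866), and Dusp2 at -0.28 (0.0909) and -0.13 (0.425). Dusp5 and Dusp6 differed from 0 h by -0.29 (95% interval -0.65 to 0.06) and -0.12 (-0.56 to 0.31). For Dusp5 the sets went opposite ways past the threshold, at -0.64 in replicates 1, 2 and 3 (adjusted p = 6.29e-05) and 0.42 in replicates 4 and 5 (0.0272). Dusp4 was at -0.13 (0.614) and 0.72 (0.00536) in the same sets.

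At pH 6.6 with IL-2, Dusp2 (1.41, SE 0.098, adjusted p = 4.4e-14) and Dusp4 (0.46, SE 0.19, adjusted p = 0.034) were above 0 h, against 30.5% of all genes. Spry1 (-1.83, SE 0.26, adjusted p = 2.56e-07), Dusp5 (-0.66, SE 0.18, adjusted p = 0.00139) and Dusp6 (-0.55, SE 0.21, adjusted p = 0.0247) were below it, against 38%. The Dusp4, Dusp5 and Dusp6 values were the less firm ones: without the block their adjusted p values were 0.156, 0.258 and 0.196, and the 0 h levels of Dusp4 ran from 10.7 to 36.6 CPM. Leaving out replicate 1, 4 or 5 ended the call for Dusp4 (0.0726, 0.136 and 0.243), as did leaving out the filter on low counts (0.0879), replicate 1 that for Dusp5 (0.0638), and replicate 2 or 3 that for Dusp6 (0.204 and 0.153). Dusp6 also lost its call with DESeq2 (0.0524) and without the filter (0.0725), and Dusp5 in the fit of only the groups compared (0.0935). In replicates 1, 2 and 3 Dusp4 was at 0.11 (0.668), Dusp5 at -1.20 (1.6e-08) and Dusp6 at -0.79 (6.99e-05), where replicates 4 and 5 had 1.18 (0.000103), 0.34, of the opposite sign (0.0506), and -0.018 (0.917). Dusp1 (0.28, adjusted p = 0.197) was at 0.018 (0.932) in the former set and at 0.86 (0.000246) in the latter, and Spry2 (-0.28, adjusted p = 0.0508) at -0.39 (0.0384) and -0.047 (0.827).

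At pH 6.6 without IL-2, Dusp2 (0.89, SE 0.097, adjusted p = 7.15e-10) and Dusp1 (0.41, SE 0.19, adjusted p = 0.0488) were above 0 h, against 34.8% of all genes, and Spry1 (-2.76), Dusp5 (-1.54) and Dusp6 (-1.52) were below it, against 40.3%. The Dusp1 call was lost without replicate 3 (0.0569), 4 (0.294) or 5 (0.187) and without the block (0.104), and the rise was 0.022 in replicates 1, 2 and 3 (0.909) and 1.13 in replicates 4 and 5 (1.2e-05). Dusp4, by contrast with its fall at pH 7.4, was at 0.36 (95% interval -0.03 to 0.75) relative to 0 h. It was at 0.065 in replicates 1, 2 and 3 (0.793) and at 0.96 in replicates 4 and 5 (0.000328).

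Cells kept in acid with IL-2 were also set against cells kept for 24 h at pH 7.4 without IL-2. The latter had been grown in IL-2 before that. Of the 8 genes, 6 were higher at pH 6.6 with IL-2 than at pH 7.4 without it, against 30.4% of all genes tested. The log2 differences were 3.79 for Dusp4, 1.71 for Dusp5, 1.36 for Dusp1, 1.23 for Spry1, 1.02 for Dusp2 and 0.94 for Dusp6. Dusp10 was at -0.19 (95% interval -0.38 to -0.00) and Spry2 at 0.03 (-0.23 to 0.30).

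The order of the 7 groups differed from gene to gene. Dusp1 was lowest at pH 7.4 without IL-2 (16.9 CPM) and highest at pH 6.6 without IL-2 (46.8 CPM), Dusp2 went from pH 7.4 with IL-2 (157 CPM) to pH 6.6 with IL-2 (484 CPM), and Dusp5 went from pH 7.4 without IL-2 (26.5 CPM) to 0 h (120.3 CPM). Dusp6 ran from pH 6.6 without IL-2 (85.3 CPM) to pH 7 with IL-2 (229 CPM), and Spry1 from pH 7.4 without IL-2 (0.324 CPM) to 0 h (2.71 CPM). Neighbours in these orders overlapped in range except in 2 places: between Dusp2 at pH 6.6 without IL-2 and Dusp2 at pH 6.6 with IL-2, and between Dusp4 at pH 7 without IL-2 and Dusp4 at 0 h.

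Per kilobase of exon, which allows levels to be compared between genes, Dusp2 had the largest mean share of the 8 in every group. Its share of their summed CPM per kilobase was 37.4% ± 4.29 at pH 7.4, 53.6% ± 3.57 at pH 7 and 68.4% ± 5.55 at pH 6.6 in the cultures with IL-2 (SD, n = 5), and the 3 ranges (35.1 to 45.1%, 48.6 to 56.4% and 62.7 to 76.1%) did not overlap. Without IL-2 the share was 70.7% ± 9.44, 75.9% ± 6.51 and 69.7% ± 6.36 at the 3 pH values. Dusp6 gave 31.5% ± 2.35 at pH 7.4 and 14.2% ± 1.55 at pH 6.6, both with IL-2, and Dusp5 gave 20.5% ± 5.02 and 9.52% ± 3.59. Shares of a sum depend on the other genes in it. Between these 2 groups the mean level of Dusp2 went from 78.5 to 241.7 CPM per kilobase. That of Dusp6 went from 65.7 to 51.2 and that of Dusp5 from 43.95 to 35.6, differences outside the threshold. The Dusp2 range at pH 6.6 with IL-2 lay inside that at pH 7.4 without IL-2 (61.5 to 85.0%), while the summed level was 357 CPM per kilobase at pH 6.6 with IL-2 against 172 at pH 7.4 without it and 210.2 at pH 7.4 with it.

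**Figure D4:**
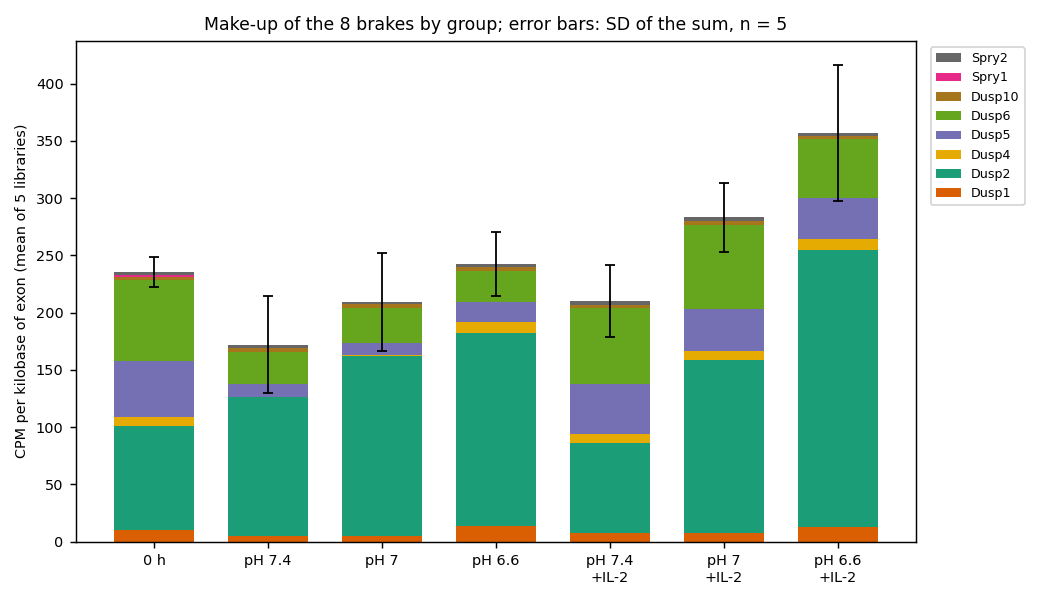
Mean CPM per kilobase of exon of the 8 genes, stacked, by group (n = 5; error bars are the SD of the sum). The Dusp2 block widens from pH 7.4 to pH 6.6 with IL-2, while the Dusp6 and Dusp5 blocks are widest at 0 h and with IL-2.

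Over the 35 libraries the levels of Dusp5, Dusp6 and Spry1 went together, with Pearson correlations of log2 CPM of 0.88 for Dusp5 and Dusp6, 0.85 for Dusp6 and Spry1 and 0.83 for Dusp5 and Spry1. Dusp2 was apart from all of them, with correlations from -0.44 to 0.32. These are descriptions over libraries that share groups and replicate numbers. Among the 9007 genes whose log2 CPM averaged 3 or more, the pattern most like Dusp4 was that of Mapkapk2 (r = 0.96), which encodes a kinase activated by p38, then Nup50 (0.95). For Dusp1 they were Cdkn1a, a cell cycle inhibitor (0.92), and the kinase gene Sik1 (0.90). For Dusp2 they were the adhesion receptor gene Adgrg1 (0.85) and 4933439C10Rik (0.84). Dusp5 was closest to H2-Q10, whose reads can be shared with related class I genes (0.93), and the lamin gene Lmna (0.93). Dusp6 was closest to Plcg2 (0.91) and Plk3 (0.91), Spry1 to Ccn3 (0.94) and Chsy1 (0.94), Spry2 to Gzmg (0.78) and Phlda3 (0.73), and Dusp10 to Fam234b (0.75) and Aldh3a2 (0.74).

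The rest of the pathway was read from 8 lists holding 93 other genes, 91 of which passed the filter on low counts. At pH 6.6 against pH 7.4 with IL-2, 35 rose, 37 fell and 19 did not pass the test, with a median log2 difference of 0.02. As percentages of all genes tested, 35.4% rose and 40.9% fell in this comparison, and most of the list counts below are near these shares. In the kinase cascade from Ras to ERK, 7 of 21 rose and 10 fell: the docking protein genes Gab2 (1.73) and Gab3 (1.37) rose most on the log2 scale, and Hras (-1.13) and the phosphatase gene Ptpn11 (-0.73) fell most. In the p38 and JNK cascades 5 of 15 rose and 3 fell, with Map3k1 (1.34) and Mapk12 (0.83) up and Mapk8 (-0.89) and Map2k4 (-0.56) down. Among the brakes on Ras and Raf 5 of 10 rose and 5 fell, Rasa3 (0.89) and Dok1 (0.58) against Dok2 (-1.04) and Pebp1 (-0.83).

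Of the 4 other MAP kinase phosphatases, Dusp16, which acts on JNK and p38, rose with acid (log2 fold change 1.07 with IL-2), and Dusp7, selective for ERK, fell (-0.35). The other two, Dusp8 (up) and Dusp9 (down), are below the level set for naming and are named here after their values were seen. Dusp16 had an interaction of -1.05 (adjusted p = 7.25e-08), of the same sign as those of Dusp1, Dusp4, Dusp5, Spry1 and Spry2. It was negative past the threshold in 32.8% of all genes. The atypical and small phosphatases split, with 6 of 12 up, Ssh2 (1.59) and Dusp11 (0.92) the most, and 5 down, among them Dusp19 (-0.90) and Dusp12 (-0.88). Of 9 other phosphatases that act on MAP kinases, 4 rose and 4 fell, with Ptpn22 (1.39) and Ppm1a (0.73) up and Ptpn7 (-1.48) and Ptpn6 (-1.04) down.

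Of 4 tested relatives of Spry1 and Spry2, 3 fell at pH 6.6 with IL-2 and 1 rose, where 40.9% and 35.4% of all genes did. The Ras inhibitor genes Spred1 (-1.08, interaction -1.63) and Spred2 (-0.61, interaction -1.07) fell in IL-2, while both rose without IL-2 (0.55 and 0.46). Spry4 and Spred3, named here after their values were seen because they lie below the level set for naming, were the other two: Spry4 fell with IL-2 (-1.68, adjusted p = 6.57e-07) and rose without it (1.23, adjusted p = 0.00432), and Spred3 rose with IL-2 (0.84) and fell without it (-1.24).

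Genes known to respond to ERK moved both ways with acid. With acid in IL-2, 5 of 16 rose and 5 fell, against 35.4% and 40.9% of all genes. The AP-1 subunit gene Fosl2 (2.32) and Zfp36l1, an RNA-binding protein gene (2.03), rose most, and Srf, the serum response factor gene, fell (-0.47). IL-2 at pH 7.4 raised 11 of the 16 and lowered 2, against 39.3% and 41.1% of all genes. With IL-2 at pH 6.6, 9 of the 16 rose and 0 fell, where 13.2% of all genes rose. Egr1, named here after its values were seen and outside the threshold, gave 0.51 with acid in IL-2 (adjusted p = 0.385).

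**Figure D5:**
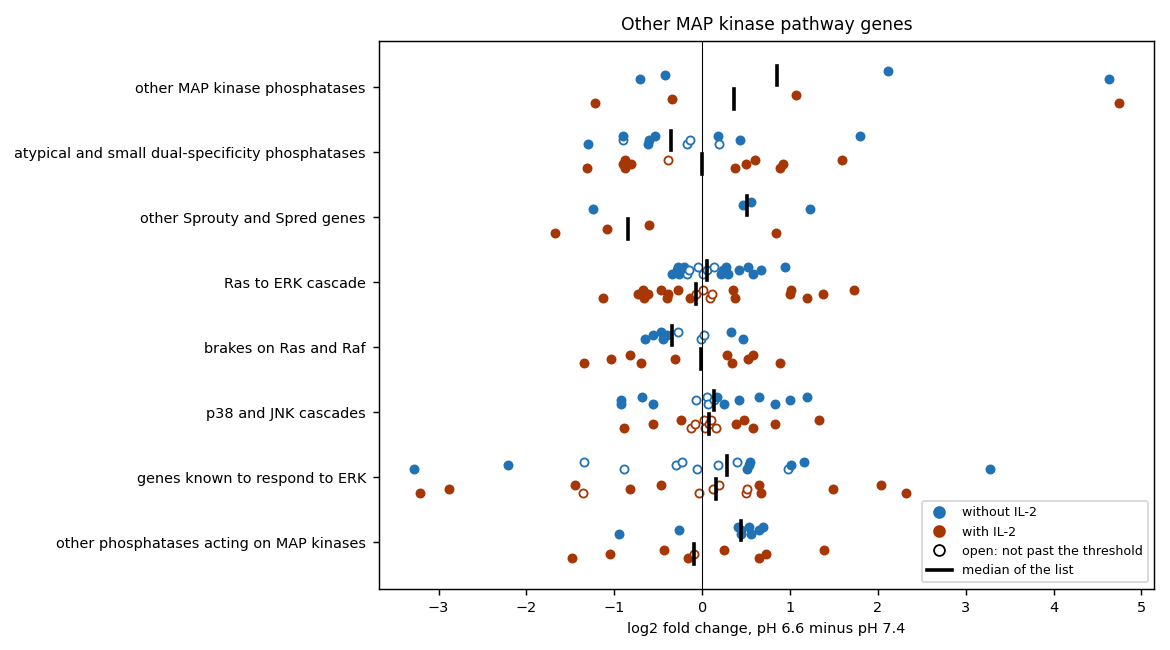
Log2 fold change at pH 6.6 against pH 7.4 for 91 other genes of the MAP kinase pathways, by list, without IL-2 (blue) and with IL-2 (brown); each point is a gene, open points did not pass the threshold, and bars are the median of the list. Every list holds genes on both sides of 0.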

How the data were processed

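The libraries were TruSeq stranded mRNA single-read libraries from 35 cultures, 5 in each of 7 groups. The authors deposited counts of reads per gene, not normalized, for 48709 genes and 5 closing lines that name no gene. The submitters' processing notes name cutadapt 1.8, STAR 2.5.2b, HTSeq 0.6.1 and GRCm38; the strand setting of the counting, the annotation release and the read length are not given in the sources used here. The non-gene lines (reads aligned to several places, median 37.1%, range 32.8 to 48.3%; outside genes, median 7.42%; overlapping several genes, median 0.922%) were left out of library sizes and tests.

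Counts were scaled by TMM, filtered with filterByExpr (minimum count 10, 13819 genes) and tested with the quasi-likelihood test of edgeR 4.0.16 in R 4.3.3, with all 35 libraries in 1 fit and the replicate number as a block, since the study used paired tests. P-values were two-sided and adjusted over all genes tested by Benjamini-Hochberg, with a threshold of 0.05. CPM uses TMM-scaled library sizes. Log2 CPM, with a prior count of 2, served the correlations and components. Exon lengths came from the GENCODE annotation of GRCm38, and promoter windows from RefSeq on GRCm38.p6 (7 of the 8 genes matched). Depth limits the precision of Spry1 most. The script was tested on simulated data. No pair of libraries in a group differed by as little as counting noise (lowest chi-square per degree of freedom 6.24 over 70 pairs). The labels call the replicates biological but do not say which animals they came from.

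The 8 genes and the pathway lists were chosen with earlier results of these data known. From each list, the 2 genes past the threshold with the largest rise and the 2 with the largest fall, with acid in IL-2 and in the interaction, were named at a mean log2 CPM of at least 3; for each of the 8, the 2 genes with the highest correlation were named. Alternatives were RLE scaling, DESeq2 1.42.0, no filter beyond 1 count, no replicate block, only the groups compared, and each replicate left out; fits with only replicates 1, 2 and 3 and with only replicates 4 and 5 were added after seeing the data.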

Additional observations from a re-analysis of the deposited data

Results flagged for a closer look

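Among the 56 sets of 5 libraries (8 genes in 7 groups), 2 held a library set far from the others by Dixon's test, which flags about 1 set in 20 by chance. At pH 7 with IL-2, Dusp4 in replicate 1 was at 13.6 CPM, where the nearest of the other libraries was at 23.2 CPM. At pH 7.4 without IL-2, Spry1 in replicate 4 was at 0.584 CPM, or 14 counts, where the nearest was at 0.300 CPM.

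The change with acid differed between cultures with and without IL-2, by the interaction test, for 6 genes at pH 6.6. On the log2 scale the difference (with IL-2 minus without) was 1.14 for Dusp2, -3.39 for Dusp4, -1.27 for Spry1, -1.19 for Dusp5, -0.71 for Dusp1 and -0.71 for Spry2. At pH 7 it was 0.58 for Dusp2. What causes these differences was not tested.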

How the results depend on the processing

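The alternatives were run on 112 values, the log2 differences of the 8 genes in 14 comparisons. Relative to the fit over all libraries, 107 kept their sign and their side of the threshold with RLE scaling, 107 with DESeq2, 103 without the filter on low counts, 94 to 100 with 1 replicate left out of every group, 93 without the replicate block, 93 with only replicates 1, 2 and 3 and 75 with only replicates 4 and 5. With only the groups compared, 99 of 110 did, since Spry1 did not pass the filter in 2 fits. Where a value moved, the cause was not tested, other than that fits of fewer replicates or groups hold fewer libraries. The depth limits Spry1 most, at 5 to 14 counts at pH 7.4 without IL-2. The replicates share only a number in the labels. Of 105 same-numbered pairs of libraries between groups, 95 deviated together with a correlation over 0.1 (median 0.273, against -0.075 for other numbers), and 35 of 35 libraries were closest on average to their own number, which is a hint from the data and not from the design. Without the block, 18 values lost their call, and each of these that a result turns on is given with that result.

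Most values that changed sign had not passed the threshold; the exceptions are Spry2 at pH 7.4 without IL-2 and Dusp5 at pH 6.6 with IL-2, both against 0 h. With only replicates 4 and 5 the log2 differences of opposite sign were, for pH 7 against pH 7.4, -0.122 for Dusp1 and 0.063 for Dusp4 with IL-2 and -0.085 for Spry1 without it. They were 0.172 for Dusp10 with IL-2 at pH 6.6, 0.178 for the Dusp6 interaction at pH 6.6, and -0.143 for Dusp1 and 0.147 for Spry2 in the interaction at pH 7. Against 0 h they were 0.418 for Dusp5, 0.016 for Dusp6 and -0.015 for Dusp10 at pH 7.4 with IL-2, 0.163 for Spry2 at pH 7.4 without IL-2, 0.344 for Dusp5 at pH 6.6 with IL-2 and 0.214 for Spry2 at pH 6.6 without IL-2. Spry2 at pH 6.6 with IL-2 against pH 7.4 without was -0.21.

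With only replicates 1, 2 and 3 they were 0.138 for Spry1 at pH 7 with IL-2, 0.131 for Dusp6 at pH 6.6 without IL-2, -0.015 for Dusp1 and 0.058 for Spry2 at pH 7 without IL-2, 0.071 for Dusp2 with IL-2 at pH 7, 0.017 for the Spry1 interaction at pH 7 and -0.134 for Dusp4 at pH 7.4 with IL-2 against 0 h. Dusp6 at pH 6.6 without IL-2 was 0.009 with RLE and with DESeq2, and Dusp1 at pH 7 without IL-2 was -0.002 with RLE and -0.003 without the filter. With only the groups compared, Dusp10 was 0.002 with IL-2 at pH 6.6 and -0.007 at pH 7.4 with IL-2 against 0 h. Without the replicate block the Dusp1 interaction at pH 7 was -0.007.

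Leaving out 1 replicate at a time spanned 0 for these log2 differences. At pH 7 with IL-2 the range was -0.029 to 0.104 for Dusp1, -0.090 to 0.012 for Dusp4 and -0.188 to 0.011 for Spry1. Without IL-2 it was -0.138 to 0.032 for Dusp6 at pH 6.6, and at pH 7 -0.032 to 0.033 for Dusp1, -0.071 to 0.080 for Dusp5 and -0.181 to 0.302 for Spry1. For IL-2 it was -0.163 to 0.038 for Dusp2 at pH 7 and -0.078 to 0.048 for Dusp10 at pH 6.6. In the interaction at pH 7 it was -0.053 to 0.070 for Dusp1 and -0.291 to 0.141 for Spry1. Against 0 h it was -0.066 to 0.066 for Dusp10 at pH 7.4 with IL-2 and -0.171 to 0.082 for Spry2 at pH 6.6 without IL-2, and for Spry2 at pH 6.6 with IL-2 against pH 7.4 without it was -0.091 to 0.183.

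The number of the 8 genes called moved by over 1.5 times in these cases; smaller moves, such as from 6 to 4 for IL-2 at pH 7 without the block, without replicate 1, without replicate 2 and in replicates 4 and 5, are not listed. With only the groups compared it was 7 in place of 4 for pH 6.6 with IL-2 and 4 in place of 1 for pH 7 with IL-2. With only replicates 4 and 5 it was 5 in place of 8 for IL-2 at pH 7.4, 5 in place of 8 for pH 7.4 without IL-2 against 0 h, and 3 in place of 6 for the interaction at pH 6.6, which was also 3 without the block. Against 0 h, pH 7.4 with IL-2 had 1 in place of 3 without the filter, 1 without the block and 1 to 4 with a replicate left out, and pH 6.6 with IL-2 had 3 in place of 5 without the filter and 2 without the block. For pH 7 without IL-2 and for the interaction at pH 7, edgeR called 0 in place of 1 without the block, with only replicates 1, 2 and 3 and with only replicates 4 and 5, and 0 to 1 with a replicate left out (0 without replicate 2 or 3, and for pH 7 without IL-2 also without 4 or 5). At an unadjusted p under 0.05 there was 1 gene in each of these fits, other than 2 for the interaction in replicates 1, 2 and 3 and 0 in replicates 4 and 5, and DESeq2 over all libraries called 1 in both comparisons.

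The number of all genes called moved most at pH 7. For pH 7 with IL-2 (2623) it was 1660 without the block, 4388 with only the groups compared, 274 with replicates 4 and 5, and 1283 (without replicate 3) to 2425 with a replicate left out. For pH 7 without IL-2 (232) these were 56, 942, 62 and 35 (without replicate 2) to 332, with 146 for replicates 1, 2 and 3. For the interaction at pH 7 (662) they were 177, 1632, 33 and 98 (without replicate 3) to 711, with 303 for replicates 1, 2 and 3, 326 without the filter and 1016 with DESeq2. For IL-2 at pH 6.6 (3278) there were 5369 with only the groups compared, 1219 with replicates 1, 2 and 3, 1802 with replicates 4 and 5 and 2119 (without replicate 4) to 2630 with a replicate left out. For pH 6.6 with IL-2 against pH 7.4 without (8906), replicates 4 and 5 gave 5866.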
